A study of Drosophila melanogaster with 7 samples.

Results

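The genes described here are the ecdysone receptor gene *EcR* and other genes around ecdysteroid hormone signalling, most of them nuclear receptor genes, on the arrays that compared *lolaORC4* mutant embryos with control embryos. Of 10 genes on the list, 5 had at least 1 array feature, and they were represented by 6 of the 10376 features: 2 clones of *EcR* and 1 clone each of *usp*, *Hr39*, *ftz-f1* and *Hnf4*. A feature was taken where the platform's gene table gave it exactly 1 gene and that gene was on the list, which chose 5 features. The *EcR* clone LD26915 is not in that table, and its gene name comes from the study's supplementary list of features called altered in *lola* null embryos. An *EcR* clone outside both sources would not have been found. *Hr3* (listed in older tables as *Hr46*), *Hr4*, *Hr78*, *Eip75B* and *Eip74EF* had no feature under these names and were not analysed here. By the RefSeq gene table, *EcR* lies on chromosome arm 2R, *Hr39* and *Hnf4* on 2L, *ftz-f1* on 3L and *usp* on X.

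Each of the 7 arrays was hybridized with RNA of mutant embryos and RNA of control embryos in different dyes, each sample from about 300 whole embryos aged 10 to 12 hours, and each pair collected at the same time. The mutant embryos, in a w1118 background, carried *lolaORC4* on both second chromosomes, together with sca-GAL4 on one and UAS-tau-eGFP on the other; *lolaORC4* is an allele that inactivates the single isoform K of the transcription factor gene *lola*. The controls carried sca-GAL4 and UAS-tau-eGFP in the w1118 background without that allele. The driver and the green fluorescent marker, which labels the central nervous system and by which embryos were sorted by hand, are thus shared by both genotypes. For the null, the paper warns that modifier loci on the *lola* chromosome may account for some expression effects. The *lolaORC4* embryos likewise had the same allele on both second chromosomes, where *EcR*, *Hr39* and *Hnf4* lie. The allele and other differences on that chromosome cannot be told apart here. In RNA of whole embryos, fewer cells of a type and less RNA per cell cannot be told apart.

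Nuclear receptors are transcription factors, many of which are switched by small lipophilic ligands. In flies the steroid hormone ecdysone acts through a heterodimer of EcR and Ultraspiracle (the *usp* product, the fly counterpart of the vertebrate RXR proteins), which binds hormone response elements and holds target genes down or turns them on according to whether hormone is present. The hormone pulses are best known for moulting and metamorphosis, but a pulse also occurs in the embryo, where EcR function is needed for morphogenetic movements such as germ band retraction. The receptor complex controls a cascade in which further nuclear receptor genes, among them *Hr39* and *ftz-f1*, are themselves regulated in time by the hormone. *Eip74EF*, one of the genes without a feature, encodes an ETS-domain factor and not a nuclear receptor.

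The values are log2 ratios of the 2 channels of an array, as deposited, and they have no settled direction. The arrays correlated positively with each other over all features, with r from 0.30 to 0.72 for 9 pairs of equal dye orientation and from 0.06 to 0.63 for 12 pairs of opposite orientation, so the deposited ratios run the same way on all of them. Whether that way is mutant over control is not stated. By the sample labels, replicates 1, 4 and 6 had the mutant RNA in Cy3, and replicates 2, 3, 5 and 7 had it in Cy5. The methods count the dyes the other way round, and every array ran opposite to the changes that the study lists for the *lola* null. A negative value below is therefore a difference between mutant and control of known size and unknown direction, and if the ratios are control over mutant every sign reverses. Intensities were not analysed here, so the values do not show how strongly any gene was expressed in either genotype.

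*EcR* and *Hr39* were the members with the largest ratios, and both were negative. Of the 6 features, 2 passed an adjusted p under 0.05 (*limma*, mean over the 7 arrays against 0, Benjamini-Hochberg over all features): *EcR* LD26915 and *Hr39* LD45021. Over all features, 7.64% passed in either direction, 3.18% with a negative and 4.46% with a positive sign. LD26915 was among the 6 because the study had called it altered in *lola* null embryos, so its call is no independent count against that share. Of the 5 features that the gene table chose, 1 passed, *Hr39*. The second *EcR* clone, RE16656, was negative as well but did not pass, and *usp*, *ftz-f1* and *Hnf4* lay close to 0. The median of the 6 means, LD26915 included, was -0.18, against -0.01 over all features. Among the 5 features that the gene table chose, the middle mean was that of *usp*, at -0.05. The median absolute mean of all features was 0.06.

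**Figure D1:**
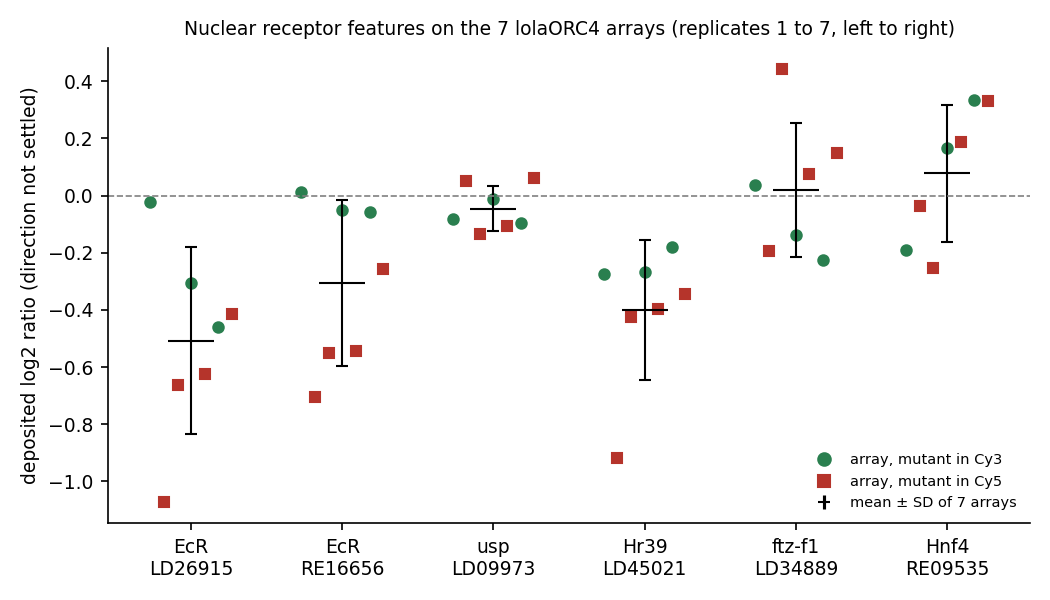
Deposited log2 ratio (vertical axis, direction not settled) of the 6 features on each of the 7 arrays, with circles for arrays with the mutant in Cy3, squares for arrays with the mutant in Cy5, and black bars for the mean ± SD of 7 arrays. Every point of *EcR* LD26915 and *Hr39* lies below 0, while the points of *usp*, *ftz-f1* and *Hnf4* lie on both sides of it.

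*EcR* encodes the hormone-binding subunit of the receptor. Its clone LD26915 had log2 ratios of -0.02, -1.07, -0.66, -0.30, -0.62, -0.46 and -0.41 on replicates 1 to 7. The value was thus negative on 7 of 7 arrays, as it was for 4.81% of all features, but replicate 1 lay next to 0 and replicate 2 at more than a log2 unit. The mean was -0.51 ± 0.33 (SD, n = 7; standard error 0.10, 95% interval -0.74 to -0.28, adjusted p = 0.017 from *limma*), a 1.42-fold difference between the channels, and it ranked 193 of all features by absolute mean. The call was lost without replicate 3 (-0.48, adjusted p = 0.056) and without replicate 5 (-0.49, adjusted p = 0.057), and held without replicate 2 (-0.41, adjusted p = 0.017). Its spread between arrays was wide, larger than that of 92.9% of all features.

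Clone RE16656 of *EcR* had 0.01, -0.71, -0.55, -0.05, -0.55, -0.06 and -0.26 on replicates 1 to 7. Replicates 1, 4 and 6, all with the mutant RNA in Cy3, lay near 0, and the other 4 were at -0.26 or lower. The mean was -0.31 ± 0.29 (SD, n = 7; 95% interval -0.52 to -0.10, adjusted p = 0.083 from *limma*), a 1.24-fold difference, and it did not pass. The 2 clones of the gene followed each other from array to array, both with their lowest value on replicate 2 and their highest on replicate 1. Averaged over the clones, *EcR* was at -0.41 ± 0.30 (SD, n = 7). It passed in a fit on the averages of 7591 genes (adjusted p = 0.032 from *limma*), as did 572 genes in all. That average includes LD26915, which was taken in because the study had called it altered in *lola* null embryos.

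The ratios of the clones differed. LD26915 minus RE16656 was -0.04, -0.37, -0.11, -0.25, -0.08, -0.40 and -0.16 on replicates 1 to 7. LD26915 was thus the lower clone on every array, and the difference averaged -0.20 ± 0.14 (SD, n = 7; two-sided exact sign-flip permutation test over arrays, p = 0.016, the smallest that 7 arrays allow; 1 pair compared). The gap was of like size in both dye orientations, at -0.23 ± 0.18 with the mutant RNA in Cy3 (SD, n = 3) and -0.18 ± 0.13 with the mutant RNA in Cy5 (SD, n = 4). The sources used here do not say which *EcR* exons or isoforms each clone carries, and whether the gap lies between transcripts or between spots was not tested.

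**Figure D2:**
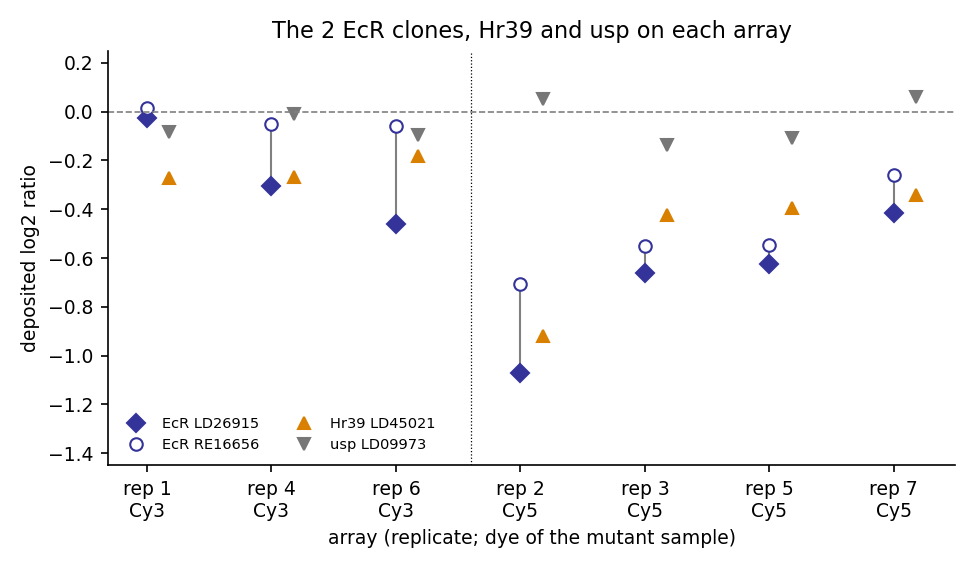
Deposited log2 ratio (vertical axis) on each array (horizontal axis, replicate and dye of the mutant sample) of the *EcR* clones LD26915 (filled diamonds) and RE16656 (open circles), joined by a line, with *Hr39* (triangles up) and *usp* (triangles down) beside them. LD26915 lies below RE16656 on all 7 arrays, and RE16656 lies near 0 on the 3 arrays to the left of the dotted line.

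*usp*, which encodes the partner of EcR, lay near 0. Its clone LD09973 had -0.08, 0.05, -0.13, -0.01, -0.11, -0.09 and 0.06 on replicates 1 to 7. These values were tight around 0, and on replicate 2, where both *EcR* clones were at their lowest, *usp* was slightly positive. The mean was -0.05 ± 0.08 (SD, n = 7; 95% interval -0.13 to 0.04, adjusted p = 0.55 from *limma*), and only 13.6% of all features had a smaller spread. The averaged *EcR* value lay below that of *usp* on 6 of 7 arrays, with a mean difference of -0.36 ± 0.32 (SD, n = 7; two-sided exact permutation test, p = 0.031, 0.078 after Benjamini-Hochberg over 5 comparisons between members; this comparison was added after the values were seen).

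*Hr39* and *ftz-f1* encode nuclear receptors of the same subfamily, which recognise closely similar DNA sites. The *Hr39* clone LD45021 had -0.27, -0.92, -0.42, -0.27, -0.40, -0.18 and -0.34 on replicates 1 to 7. All were negative, replicate 2 stood far below the others, and the remaining 6 lay within a narrow band. The mean was -0.40 ± 0.24 (SD, n = 7; standard error 0.08, 95% interval -0.58 to -0.22, adjusted p = 0.016 from *limma*), a 1.32-fold difference. The call held with each array left out in turn (-0.44 to -0.31, adjusted p up to 0.0499), and without replicate 2 the mean was -0.31 (adjusted p = 0.0038). It also held on the arrays of each dye orientation alone, at -0.24 ± 0.05 with the mutant in Cy3 (SD, n = 3; adjusted p = 0.038 from *limma*) and -0.52 ± 0.27 with the mutant in Cy5 (SD, n = 4; adjusted p = 0.041 from *limma*). Among the 6 features it was the only one to pass in both.

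*ftz-f1* encodes the cofactor of the segmentation protein Fushi tarazu and a later factor that makes tissues competent to respond to hormone pulses. Its clone LD34889 had 0.04, -0.19, 0.44, -0.14, 0.08, -0.22 and 0.15 on replicates 1 to 7. The signs were mixed, with 4 positive and 3 negative arrays, and the highest value was on replicate 3. The mean was 0.02 ± 0.23 (SD, n = 7; 95% interval -0.15 to 0.19, adjusted p = 0.91 from *limma*), and it turned negative without replicate 3 (-0.05).

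*Hnf4* encodes a receptor that in flies controls genes of fatty acid breakdown and other energy metabolism. Its clone RE09535 had -0.19, -0.04, -0.25, 0.17, 0.19, 0.33 and 0.33 on replicates 1 to 7. Replicates 1, 2 and 3 were negative and the other 4 positive, and this split followed neither dye orientation nor the arrays on which *EcR* was low. The mean was 0.08 ± 0.24 (SD, n = 7; 95% interval -0.10 to 0.25, adjusted p = 0.63 from *limma*).

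Ordered by their mean log2 ratio, with the *EcR* clones averaged, the genes ran *EcR* (-0.41), *Hr39* (-0.40), *usp* (-0.05), *ftz-f1* (0.02) and *Hnf4* (0.08). *EcR* and *Hr39* did not differ beyond their spread (-0.01 ± 0.16, SD, n = 7; exact permutation p = 0.95), nor did *usp* and *ftz-f1* (-0.07 ± 0.27; exact permutation p = 0.61) or *ftz-f1* and *Hnf4* (-0.06 ± 0.41; exact permutation p = 0.72). *Hr39* lay below *usp* on 7 of 7 arrays (-0.35 ± 0.29, SD, n = 7; exact permutation p = 0.016, 0.078 after adjustment over the 5 comparisons). These are differences between ratios, not between expression levels.

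**Figure D3:**
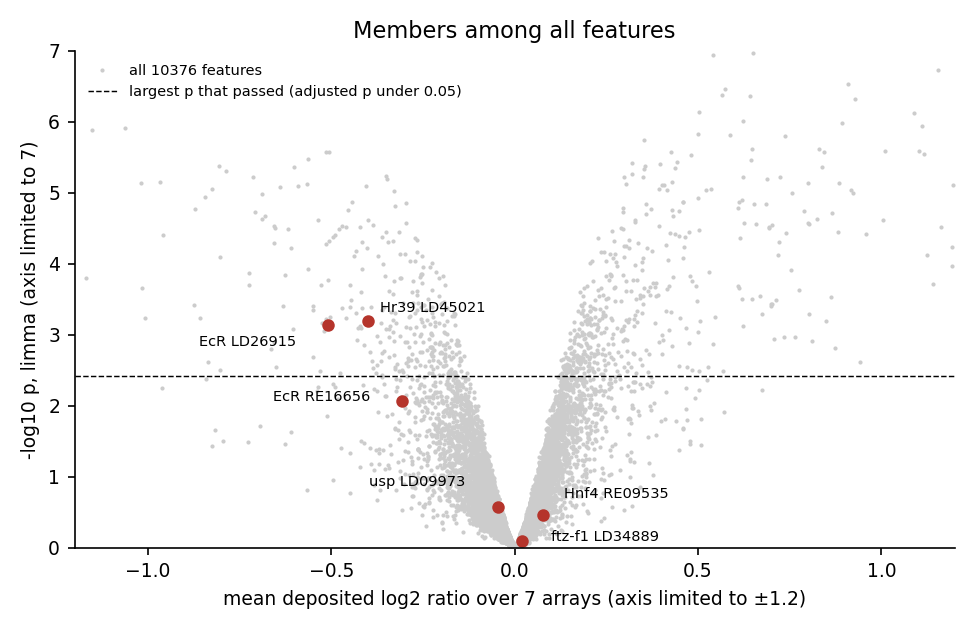
Mean deposited log2 ratio over 7 arrays (horizontal axis, limited to 1.2 either side of 0) against -log10 of the unadjusted p from *limma* (vertical axis, limited to 7) for all 10376 features in grey and the 6 features described here in red, with a dashed line at the largest p that passed. *EcR* LD26915 and *Hr39* lie above the line on the negative side, *EcR* RE16656 lies just under it, and the other 3 lie near the bottom.

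The dye orientation moved with the *EcR* values. The mean of RE16656 was -0.03 ± 0.04 with the mutant RNA in Cy3 (SD, n = 3; adjusted p = 0.70 from *limma* on these arrays) and -0.51 ± 0.19 with the mutant RNA in Cy5 (SD, n = 4; adjusted p = 0.024 from *limma*), and the orientations did not overlap. Such a gap was common on these arrays, since 26.4% of all features had orientations that did not overlap. Among the 6 features, *Hr39* was the only other one without overlap. LD26915 had -0.26 ± 0.22 with the mutant in Cy3 (SD, n = 3; adjusted p = 0.13 from *limma*) and -0.69 ± 0.28 with the mutant in Cy5 (SD, n = 4; adjusted p = 0.024 from *limma*), and its orientations overlapped.

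A dye coefficient, a term in the model that is positive where arrays with the mutant in Cy5 have the higher ratio, passed for 1 of the 6 features, against 10.6% of all features. It was -0.24 for RE16656 (standard error 0.05, adjusted p = 0.021 from *limma*), and leaving out replicate 1, 3, 4, 5 or 6 ended that call (adjusted p between 0.057 and 0.078). For LD26915 it was -0.21 (adjusted p = 0.13 from *limma*), for *Hr39* -0.14 (adjusted p = 0.22 from *limma*), for *ftz-f1* 0.11, for *Hnf4* -0.02 and for *usp* 0.02. With this coefficient in the model, which weights the orientations equally, 3 of the 6 features passed, all negative, against 11.9% of all features in either direction and 5.46% with a negative sign: RE16656 at -0.27 (adjusted p = 0.014 from *limma*), LD26915 at -0.48 (adjusted p = 0.0093 from *limma*) and *Hr39* at -0.38 (adjusted p = 0.012 from *limma*). The mean of RE16656 in that fit lies between an orientation with no detectable ratio and one with a clear ratio.

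**Figure D4:**
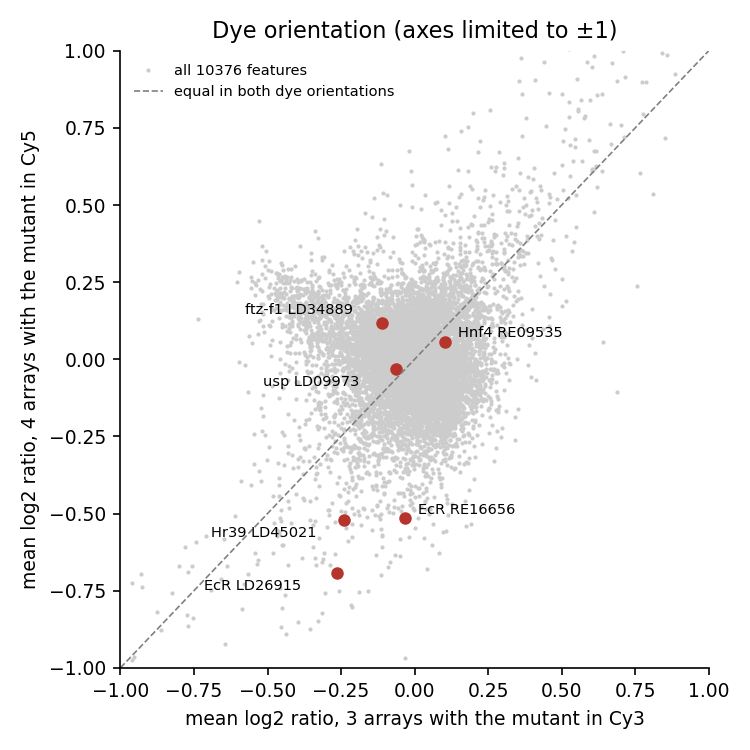
Mean deposited log2 ratio of the 3 arrays whose mutant RNA was in Cy3 (horizontal axis) against that of the 4 with it in Cy5 (vertical axis), both limited to 1 either side of 0, for all 10376 features in grey and the 6 features in red, with a dashed line where both are equal. *EcR* RE16656 lies at -0.03 and -0.51, far from the line, and *EcR* LD26915 and *Hr39* lie below the line with both means negative.

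Replicate 2 gave the lowest value for 3 of the 6 features, both *EcR* clones and *Hr39*. It gave the lowest value for 22.6% of all features, the highest share of the 7 arrays. The features of other genes most like the averaged *EcR* over the 7 arrays were picked by the root mean square difference among 8593 features with 1 gene. They were those of *Utx* (a histone demethylase gene, clone LD05703, difference 0.11), *klar* (a gene for transport along microtubules, clone GM08528, difference 0.14) and *CG13784* (clone SD10385, difference 0.14). They stood at -1.01, -0.90 and -1.04 on replicate 2, which follows from their being picked for likeness to *EcR*. None of them passed over all arrays (adjusted p = 0.067, 0.051 and 0.11 from *limma*). *Hr39* was about as close to *EcR*, with a difference of 0.15.

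Other nuclear receptor genes had small ratios. Of 12 such genes 5 were on the arrays with 6 features, and none passed (*limma*, none at an unadjusted p under 0.05 either). Over all features the shares were 7.64% and 21.9%. All 6 means were negative, from -0.12 for a clone of *svp* (the fly COUP-TF gene) to -0.01 for *kni* (a gap gene), with a median of -0.09. Over all features 53.5% of the means were negative. *knrl* (-0.10), *Hr96* (-0.08) and *ERR* (-0.04), the fly counterpart of the estrogen-related receptors, lay between.

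The genes that make, carry or remove the hormone mostly had means near 0 over the 7 arrays. Of 8 features of ecdysone synthesis genes, 1 passed (12.5%, beside 7.64% of all features), and it was positive. *Npc2a*, a sterol transport gene, had 0.65, 0.83, 0.72, 0.50, 0.61, 0.70 and 0.36 on replicates 1 to 7. These values were all well above 0 and of opposite sign to *EcR*, with a mean of 0.62 ± 0.15 (SD, n = 7; adjusted p = 0.00037 from *limma*), a 1.54-fold difference. The synthesis enzymes *shd* and *spo*, both cytochrome P450 genes, were at 0.10 and 0.06. *Npc1a*, which acts with *Npc2a* in sterol transport, averaged 0.01, but the dye orientations had opposite signs. It was at 0.20 with the mutant RNA in Cy3 and at -0.14 with it in Cy5, without overlap. Its dye coefficient passed (adjusted p = 0.012 from *limma*), as did that of 10.6% of all features. None of the 4 features of uptake, export and turnover genes passed (*limma*). At an unadjusted p under 0.05 there was 1 (25%, beside 21.9% of all features). The importer gene *Oatp74D* was at -0.12, the *E23* clones, of an ABC transporter gene, at -0.11 and -0.12, and *Cyp18a1*, whose enzyme inactivates ecdysteroids, at 0.10. The *E23* clone RE53253 was at 0.02 with the mutant RNA in Cy3 and at -0.23 with it in Cy5. Its dye coefficient passed as well (adjusted p = 0.045 from *limma*).

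Of 15 features of genes known as ecdysone-inducible, 2 had an unadjusted p under 0.05 (*limma*, 13.3%, beside 21.9% of all features). None of the 15 passed, beside 7.64% of all features. With the dye coefficient the count was 0 as well, beside 11.9% of all features. It was 1 with quantile normalization, with array weights, without replicate 1 or without replicate 2, beside 6.65% to 8.91% of all features. With the mutant RNA in Cy3 alone it was 2, beside 10.8% of all features. The 15 features had a median of -0.06, and 12 of the 15 means were negative. The largest was *MsrA*, formerly *Eip71CD*, a methionine sulfoxide reductase gene, at -0.41 ± 0.36 (SD, n = 7; adjusted p = 0.060 from *limma*). It ran from 0.12 on replicate 1 to -0.96 on replicate 7, and on replicate 2, where *EcR* was lowest, it was at -0.03. *br*, an early target of the hormone in metamorphosis, had clones at -0.07 and 0.003. *ImpE1*, *ImpE2* and *ImpE3*, which are ecdysone-inducible in imaginal discs, averaged -0.06 ± 0.46, -0.01 ± 0.70 and -0.09 ± 0.18 (SD, n = 7). *ImpE1* ran from -0.92 to 0.46 over the arrays and *ImpE2* from -1.14 to 1.05. *ImpE3* was at -0.27 with the mutant RNA in Cy3 and at 0.04 with it in Cy5. Its dye coefficient passed (adjusted p = 0.019 from *limma*), as did that of 10.6% of all features.

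Among 15 features of nuclear receptor cofactors 3 passed (20%, beside 7.64% of all features), 1 positive and 2 negative. An unadjusted p under 0.05 was found for 10 of the 15 (66.7%, beside 21.9% of all features). *simj*, which encodes a subunit of the NuRD chromatin complex, was at -0.32 ± 0.19 on clone LD33361 (SD, n = 7; adjusted p = 0.016 from *limma*), and its second clone at -0.20 did not pass (adjusted p = 0.074). *HDAC1*, a histone deacetylase gene, was at -0.22 ± 0.10 (SD, n = 7; adjusted p = 0.016 from *limma*). *mbf1*, a transcriptional coactivator gene, was at 0.17 ± 0.06 on clone GH10148 (SD, n = 7, adjusted p = 0.022 from *limma*), and its second clone at 0.12 did not pass (adjusted p = 0.076 from *limma*). The call of *simj* was lost without replicate 5 (-0.29, adjusted p = 0.053), that of *HDAC1* without replicate 3 or 5 (-0.21 and -0.20, adjusted p = 0.052 and 0.058) and that of *mbf1* without replicate 3, 5, 6 or 7 (0.15 to 0.17, with an adjusted p of at most 0.074). Of the 15 features, 0 passed without replicate 5 (beside 4.25% of all features) or with the mutant RNA in Cy3 alone (10.8%). The count was 1 without replicate 3 (4.3%) and 5 without replicate 1 (6.65%). It was 6 with the mutant RNA in Cy5 alone (6.85%) and 6 with the dye coefficient (11.9%). *Smr*, the corepressor of EcR, was at -0.21 ± 0.27 (SD, n = 7; adjusted p = 0.18 from *limma*).

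**Figure D5:**
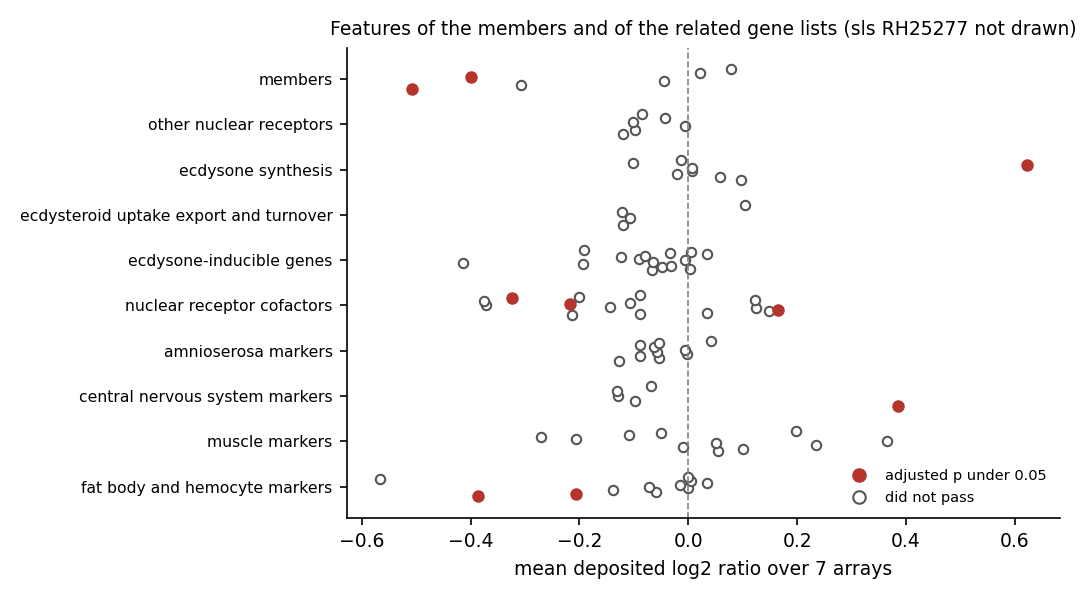
Mean deposited log2 ratio over 7 arrays (horizontal axis) of every feature of the 6 described here (top row) and of each gene list (other rows), filled where the adjusted p was under 0.05. The filled points are *EcR* LD26915 and *Hr39* in the top row, *Npc2a* at 0.62, 3 cofactor features, *nSyb* at 0.39 and both *Pxn* clones, and the *sls* clone RH25277, which also passed, is not drawn.

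Markers of tissues that a whole embryo holds were set beside these values. Whether each marker is expressed in embryos of 10 to 12 hours was not tested. Over all features 7.64% passed and 21.9% had an unadjusted p under 0.05. No feature of 10 for the amnioserosa, an embryonic tissue tied to ecdysone signalling, passed (*limma*, none at an unadjusted p under 0.05), with means from -0.13 to 0.04. Of 5 features of central nervous system markers, the synaptic vesicle gene *nSyb* passed at 0.39 ± 0.19 (SD, n = 7; adjusted p = 0.0071 from *limma*) and the other 4 lay between -0.13 and -0.07. Of 11 features of fat body and hemocyte markers, both clones of *Pxn*, the gene of a basement membrane peroxidase made by hemocytes, passed at -0.39 and -0.21, and of 12 muscle features only clone RH25277 passed, which the platform names *sls* but the study's list marks as a *copia* retrotransposon. The mean of the list's features over an array ran from -0.14 to 0.06 for the amnioserosa, from -0.26 to 0.17 for the nervous system, from -0.43 to 0.02 for fat body and hemocytes and, with RH25277 included, from -0.54 to 0.16 for muscle. The lowest of these array means fell on replicate 2, the array with the lowest *EcR* and *Hr39* values, for the nervous system, and fat body and hemocytes, and on replicate 1 for muscle. For the amnioserosa no single array stood out, with -0.136, -0.135 and -0.127 on replicates 2, 3 and 5, all with the mutant in Cy5. Replicate 7, also with the mutant in Cy5, was at -0.005. The -0.43 of fat body and hemocytes rested on the *apolpp* clone GH18004, at -3.26 on replicate 2. Without it, a choice made after the values were seen, the list's array means ran from -0.17 to 0.01, with -0.15 on replicate 2 and the lowest on replicate 1. The muscle means include RH25277, which ran from -2.57 to -1.48 over the arrays and so lowered each of them. Muscle means without this clone were not worked out. The part of these tissues in the *EcR* and *Hr39* ratios was not tested.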

How the data were processed

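The authors read spot intensities of 7 spotted cDNA arrays with GenePix and *limma* (version not given in the sources used here), left out spots that failed checks of sequence, contamination or extraction, and, without correcting the background, used print-tip loess within each array and scaling between arrays. The deposited values are log2 ratios, 1 for each feature on each array. Direction and centring are not stated. The arrays' medians lay between -0.01 and 0.02, and the number of missing values was 0. All 10376 features entered the fit. Genes were named from the platform annotation, updated through the RefSeq gene table: 8599 features had 1 gene (LD26915 included), 517 several and 1260 none.

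*limma* 3.58.1 (R 4.3.3) estimated the mean of every feature across arrays (lmFit, eBayes) and adjusted p-values over all features by Benjamini-Hochberg (0.05). The scripts were tested on simulated data. Pairs of values within arrays were compared by exact two-sided sign-flip tests over the 128 sign patterns. The members and the gene lists were chosen with earlier results of these data known. Of each other list, up to 4 features that passed and the 3 features most like *EcR* are named by rule, and other features named were chosen after their values were seen. The list symbols *phm*, *EcI* and *DOR* matched no single gene and were not used under these names. Alternatives were a dye coefficient, robust empirical Bayes, array weights, median centring, quantile normalization, a fit on features with a gene name only, averaging the features of a gene, a threshold of 0.01, leaving out each array and, added after the values were seen, the arrays of each dye orientation alone and a dye coefficient with robust empirical Bayes. The number of arrays limits the precision, and the methods describe the 7 sample pairs as collected separately.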

Additional observations from a re-analysis of the deposited data

Results flagged for a closer look

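The value of *Hr39* on replicate 2 (-0.92) lay apart from the other 6 arrays, which ran from -0.42 to -0.18. The gap was 0.67 of the whole range, above the 95% critical value of Dixon's test for 7 samples. In all 15 sets of 7 values were looked at in this way and this was the 1 that stood out. Chance alone gives such a gap in about 5% of sets. Both *EcR* clones were also at their lowest on that array (-1.07 and -0.71), and without it *Hr39* had a mean of -0.31 (adjusted p = 0.0038 from *limma*).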

How the results depend on the processing

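The signs of *EcR*, *Hr39*, *usp* and *Hnf4* were the same under every alternative run. With a dye coefficient 1234 of all features passed (1222 with robust empirical Bayes added), against 793 without it, 313 at a threshold of 0.01, and 441 to 810 with 1 array left out. At 0.01 the number of member features that passed was 0 instead of 2. With the mutant RNA in Cy3 alone it was 1, against 10.8% of all features, and with the mutant RNA in Cy5 alone 3, against 6.85%. With 1 array left out it was 1 to 2, against 4.25% to 7.81% of all features. *EcR* LD26915 did not pass with the mutant RNA in Cy3 alone (-0.26) and ran from -0.59 to -0.41 with 1 array left out. *EcR* RE16656 passed with a dye coefficient (-0.27, also with robust empirical Bayes), with the mutant RNA in Cy5 alone (-0.51) and when averaged with LD26915 (-0.41). *ftz-f1* was at -0.11 with the mutant RNA in Cy3 alone, and from -0.049 to 0.062 with 1 array left out (-0.049 without replicate 3 and -0.00067 without replicate 7). The gap between the *EcR* clones was -0.23 and -0.18 in the orientations with the mutant RNA in Cy3 and in Cy5, where 0.25 and 0.13 are the smallest exact p that 3 and 4 arrays allow. The dye coefficient passed for 0 to 1 of the 6 features with 1 array left out. Of the 48 features of the 5 related pathway lists, 4 passed (8.33%, near the 7.64% of all features). With a dye coefficient 7 passed (14.6%, beside 11.9% of all features), and 7 with robust empirical Bayes added (beside 11.8%). With the mutant RNA in Cy5 alone 8 passed (16.7%, beside 6.85% of all features). With 1 array left out 1 to 7 passed (2.08% to 14.6%, beside 4.25% to 7.81% of all features). No paired analysis was possible because each array already is the ratio of a matched pair and the arrays form 1 group. With 7 arrays, the 95% intervals of *usp*, *ftz-f1* and *Hnf4* included 0 and reached at most 0.25 from it.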

Other observations

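Several genes beside *EcR* and *Hr39* had their lowest ratio on replicate 2. The *svp* clones AT29920 and GH08189 were at -0.63 and -0.55 on that array, against -0.25 to 0.13 and -0.26 to 0.13 on the other 6. *knrl*, a nuclear receptor gene related to *kni*, was at -0.56 there, against -0.25 to 0.06 on the other 6. Of the *E(bx)* clones, from the gene of the largest subunit of the NURF chromatin remodelling complex, RE57757 was at -1.17 on replicate 2, -0.82 on replicate 5 and 0.47 on replicate 1, LD30146 was at -0.77 on replicate 2 and -0.43 on replicate 5, and neither clone passed (*limma*). These features were picked after their values were seen.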
